A study of Mus musculus with 10 samples.

Results

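The macrophage identity and polarization genes examined here were Adgre1, Csf1r, Mrc1, Cd163, Arg1, Nos2, Trem2, Spp1, Folr2 and Apoe, which were taken by gene name from a table of 36009 genes. All 10 were found once and all 10 passed the filter on low counts. The tumors were CT26, a mouse colorectal carcinoma line, grown under the skin of wild type (WT) female BALB/c mice. RNA came from the piece of tumor resected before any treatment, after which a hydrogel loaded with poly(I:C), a synthetic double-stranded RNA, was placed on the tumor left behind. The 6 responders were tumors of mice that later regressed completely, and the 4 non-responders were tumors that grew with no delay, so no library had seen the drug and the groups were defined by later outcome. The host immune system was intact, and each library held tumor cells and infiltrating host cells together.

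Macrophages mature from monocytes under colony-stimulating factor 1 (CSF1), which signals through the receptor encoded by Csf1r. In tumors they take on a range of states that are often described by marker genes, from nitric oxide producing cells marked by Nos2, through arginase-producing cells marked by Arg1, to lipid-handling cells with Trem2 and Apoe, osteopontin-producing cells with Spp1 and scavenging or tissue-resident cells with Mrc1, Cd163 and Folr2. Adgre1 encodes F4/80, the surface protein by which mouse macrophages are usually sorted. Some of these genes are also used by other cells, Spp1 by carcinoma cells and Apoe by adipocytes among them, and bulk RNA does not say which cell a transcript came from.

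Library totals were between 29065126 and 38042544 estimated counts in responders and between 23374649 and 32986456 in non-responders, and the members had between 146 and 111448 counts in a tumor. As a check of the label, the epithelial genes Krt8, Krt18 and Vil1, looked at after other values were known, were at or below 0.565 CPM (counts scaled to a common library size) in every tumor, and Epcam was at or below 0.709 CPM, so these defining markers of the labelled carcinoma were at or near 0, while Cdx2 was between 0.364 and 1.61 CPM and Cdh1 between 2.63 and 7.03 CPM. Summed CPM over 6 skeletal muscle markers ranged from 356 to 1154 in responders and from 316 to 416 in non-responders, and over 6 adipocyte markers from 5.39 to 44.7 against 0.807 to 12.4. T cell markers summed to between 114 and 264 CPM in responders and between 70.8 and 131 CPM in non-responders, mast cell markers to between 49.4 and 173 against 26.2 to 57.0 CPM, and inflammatory monocyte markers to between 153 and 228 against 89.7 to 155 CPM. The largest part of the T cell sum was Cd4, at means of 88.2 and 73.2 CPM (log2 fold change 0.27). Cd3d, Cd3e, Cd3g, Cd2 and Cd8a had log2 fold changes of 1.05, 1.27, 1.41, 0.66 and 1.91. Of the marker lists so far, edgeR called higher in responders 2 of 6 muscle genes (Acta1 and Ckm), 0 of 5 adipocyte, 0 of 6 T cell, 2 of 5 mast cell and 1 of 4 monocyte genes that could be tested, with 5, 5, 5, 5 and 3 at an unadjusted p under 0.05. Over all 16041 genes tested, 4.71% were called higher and 4665 were at an unadjusted p under 0.05. Neutrophil markers summed to between 75.1 and 154 CPM against 59.3 to 126 CPM, dendritic cell markers to between 44.4 and 62.4 against 44.6 to 57.9 CPM, endothelial markers to between 89.0 and 145 against 71.9 to 108 CPM and keratinocyte markers to between 3.89 and 5.47 against 3.17 to 9.18 CPM, and of these genes 1, the dendritic cell gene Xcr1, was called higher. The part of these cells in the results on the members was not tested.

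The comparison of responders with non-responders asks which features of the tumor before treatment go with a later response. Of the 10 members, Apoe and Adgre1 were higher and Spp1 was lower in responders at an adjusted p under 0.05 (edgeR quasi-likelihood test over all genes tested), and in these 3 genes the groups did not overlap. Across the 16041 genes tested, 8.06% were called, 4.71% higher and 3.35% lower in responders, and 4665 were at an unadjusted p under 0.05. Groups that did not overlap were found in 5.84% of genes with responders higher and in 4.55% with responders lower. The other 7 members did not pass. The median log2 fold change was -0.034 over the members and -0.0086 over all genes tested. In a bulk sample, more cells of a type and more RNA per cell cannot be told apart. Each replicate was the tumor of a separate mouse, and values after ± are SDs over the 6 responders and 4 non-responders.

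**Figure D1:**
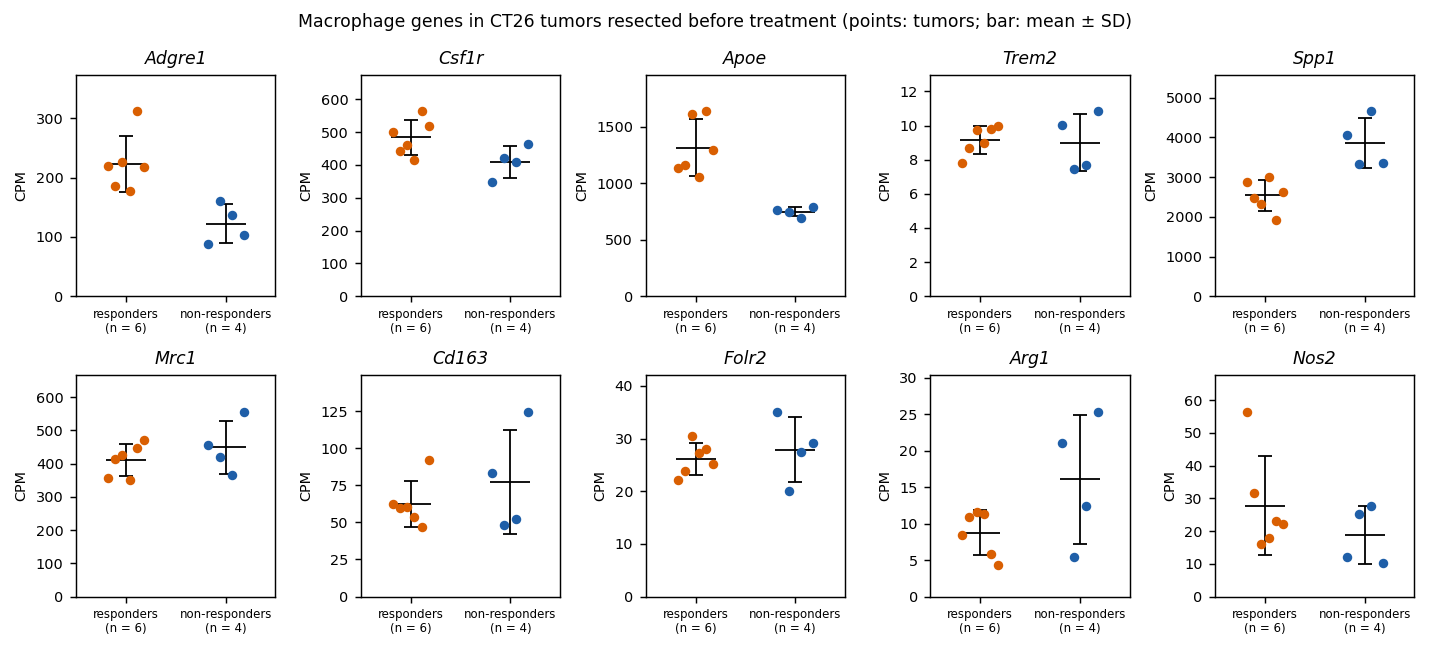
Expression of the 10 macrophage genes in CPM (vertical axes, each from 0) in responder and non-responder tumors, with 1 point per tumor and the mean ± SD as a bar. Points of Adgre1 and Apoe sit higher in all 6 responders than in any non-responder, points of Spp1 sit lower, and the groups overlap in the other 7 genes.

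**Figure D2:**
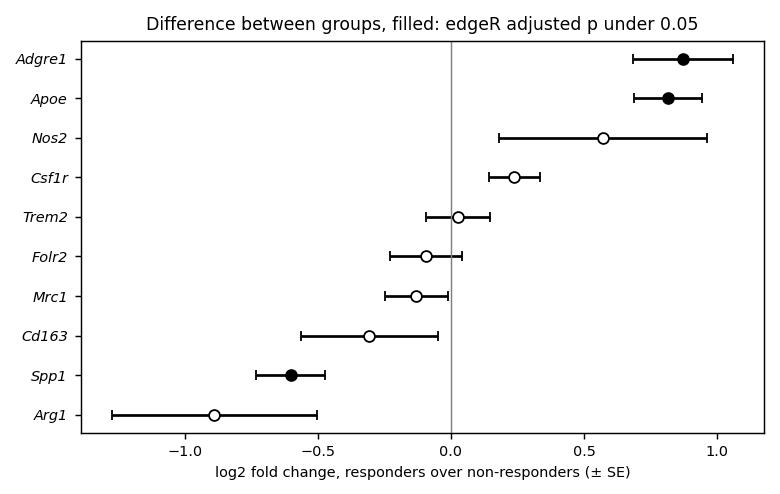
Log2 fold change of each member, responders over non-responders (horizontal axis), with its SE as a bar and filled points for an edgeR adjusted p under 0.05. Adgre1 at 0.87 and Apoe at 0.82 lie to the right, Spp1 at -0.60 to the left, and Arg1 and Nos2 carry the widest bars.

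The surface identity genes differed in how far they moved. Adgre1 (ENSMUSG00000004730, chromosome 17, 57358691 to 57483527 on GRCm38) was at 177 CPM in the lowest responder, at a median of 219 CPM and at 312 CPM in the highest. In non-responders 1 to 4 it was at 87.9, 160.3, 138 and 103 CPM. Every responder was above every non-responder, with the closest tumors, responder 4 and non-responder 2, 177 against 160.3 CPM. The mean was 223 ± 47.8 CPM (SD, n = 6) against 122 ± 32.9 CPM (SD, n = 4), a 1.83-fold difference (edgeR log2 fold change 0.87 with SE 0.19 and adjusted p = 0.031). The adjusted p of Adgre1 rose to 0.0729, 0.0538 and 0.0856 without non-responder 1, 3 or 4 and to 0.0506 and 0.0656 without responder 2 or 3, while its log2 fold change stayed between 0.75 and 1.03 with any tumor left out.

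Csf1r (ENSMUSG00000024621, chromosome 18, 61100598 to 61132149), the receptor that macrophages need for survival, was at 414, 482 and 563 CPM in the lowest, median and highest responder. In the non-responders it was at 347, 421, 408 and 465 CPM. The groups overlapped, with 3 of 6 responders higher than the highest non-responder. The difference was small and did not pass (edgeR log2 fold change 0.24 with SE 0.10 and adjusted p = 0.130, unadjusted p = 0.0307). Of the 31-base words in annotated Csf1r transcripts, 14.95% also occur in other genes, chiefly the overlapping antisense gene Hmgxb3, so its counts carry that uncertainty.

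Most other pan-macrophage genes were higher in responders, as Adgre1 was. Of 17 in the list (Fcgr1, Itgam, Aif1, Ctss, Laptm5 and Mpeg1 among them), all were tested, 14 were higher in responders and 0 lower, with a median log2 fold change of 0.57. Of all genes tested, 4.71% were called higher. The complement genes C1qa and C1qc had log2 fold changes of 0.65 and 0.76 (edgeR adjusted p = 0.0295 and 0.0229). The lysozyme gene Lyz2, the lysosomal membrane gene Cd68 and Spi1, which encodes the myeloid factor PU.1, rose by 0.47 each on the log2 scale (edgeR adjusted p = 0.0288, 0.0299 and 0.0318). The efferocytosis receptor gene Mertk and the endotoxin co-receptor gene Cd14 had log2 fold changes of 0.03 and 0.07 (edgeR adjusted p = 0.888 and 0.670), and the chemokine receptor gene Cx3cr1 0.25 (edgeR adjusted p = 0.276).

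Of 10 genes listed with the CSF1 receptor axis, which include the GM-CSF genes Csf2, Csf2ra and Csf2rb, 6 were higher and 1 lower. Of all genes tested, 4.71% were called higher and 3.35% lower. Csf1, the ligand gene, was at 474 ± 43.3 CPM (SD, n = 6) against 365 ± 23 CPM (SD, n = 4; edgeR log2 fold change 0.38 with SE 0.07 and adjusted p = 0.0264). Il34, which encodes the other ligand of the receptor, was lower in every responder, 43.8 ± 1.67 against 51.1 ± 3.35 CPM (edgeR log2 fold change -0.22 with SE 0.05 and adjusted p = 0.0327). Csf2ra, a subunit of the GM-CSF receptor, rose by 0.75 on the log2 scale, Tyrobp, the signaling adaptor shared by TREM2, by 0.54, Plcg2 by 0.40 and Inpp5d by 0.38 (edgeR adjusted p = 0.0229, 0.0311, 0.0243 and 0.0401).

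Apoe (ENSMUSG00000002985, chromosome 7, 19696109 to 19699188), which encodes the lipid carrier apolipoprotein E, had the smallest p of the members, 30th of all genes tested. It was at 1052 CPM in the lowest responder, at a median of 1226.5 CPM and at 1634 CPM in the highest. In the non-responders it was at 762, 746, 695 and 785 CPM, a narrow range. No responder came near these values. The mean was 1314 ± 251 CPM (SD, n = 6) against 747 ± 38.3 CPM (SD, n = 4), a 1.76-fold difference (edgeR log2 fold change 0.82 with SE 0.13 and adjusted p = 0.0207). Without non-responder 1 or 4 or without responder 3 the adjusted p of Apoe was 0.0529, 0.0584 and 0.0564, and its log2 fold change stayed between 0.74 and 0.88 with any tumor left out.

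Trem2 (ENSMUSG00000023992, chromosome 17, 48346401 to 48354147), a lipid-sensing receptor that binds APOE, did not move with Apoe. It was at 7.82, 9.37 and 9.97 CPM in the lowest, median and highest responder and at 10.01, 7.43, 7.72 and 10.8 CPM in non-responders 1 to 4. The responders lay inside the range of the non-responders (edgeR log2 fold change 0.03 with SE 0.12 and adjusted p = 0.913). The count of Trem2 ended within 0.05 of 0.5 of a read in 7 of 10 tumors, and that of its neighbor Treml2 also in 7. Whether these were the same tumors was not checked. Of the 31-base words of Trem2, 0.04% occur in another gene. Where 4.71% of all genes tested were called higher, 3 of 18 other genes of the TREM2 and lipid-associated list were higher and 0 lower in responders. These were Lpl, lipoprotein lipase, at 62.0 ± 15.7 against 22.1 ± 11.9 CPM (log2 fold change 1.496, edgeR adjusted p = 0.0285), the cholesterol exporter gene Abcg1 (0.71, edgeR adjusted p = 0.0397) and Nr1h3, which encodes the oxysterol receptor LXR alpha (0.69, edgeR adjusted p = 0.047). Gpnmb and Fabp5, often named beside Trem2, had log2 fold changes of 0.06 and 0.05 and did not pass (edgeR adjusted p = 0.874 and 0.876). Lpl and Apoe are also transcribed by adipocytes, whose summed markers reached 44.7 CPM in responders and 12.4 CPM in non-responders, and their part was not tested.

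Spp1 (ENSMUSG00000029304, chromosome 5, 104435118 to 104441050), which encodes the secreted phosphoprotein osteopontin, went the other way. It was at 1909, 2554 and 2992 CPM in the lowest, median and highest responder. In the non-responders it was at 4060.0, 3334, 4653 and 3362 CPM. Every responder was below every non-responder. The mean was 2538 ± 395 CPM (SD, n = 6) against 3852 ± 631 CPM (SD, n = 4), so the level was 1.52-fold higher in non-responders (edgeR log2 fold change -0.60 with SE 0.13 and adjusted p = 0.031). The adjusted p of Spp1 rose to 0.0745, 0.061 and 0.0666 without non-responder 1, 3 or 4 and to 0.0587 and 0.0683 without responder 2 or 3, and its log2 fold change stayed between -0.66 and -0.50 with any tumor left out. An annotated gene inside Spp1, Gm42793, shares 14.3% of its 31-base words and has no row in the table. The fibroblast markers summed to between 3899 and 4607 CPM in responders and between 3310 and 5612 CPM in non-responders, and 1 of 6, Postn, was lower in responders. Among the 10 osteopontin receptor genes, the alpha integrins Itga4 and Itga9 were higher in responders (log2 fold changes 0.60 and 0.36, edgeR adjusted p = 0.0347 and 0.0334) and 0 were lower. Over all genes tested the shares were 4.71% and 3.35%. The receptor gene Cd44 was at 589 ± 46.2 against 644 ± 137 CPM (log2 fold change -0.13, edgeR adjusted p = 0.493).

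The scavenger and resident-type genes did not follow Adgre1. Mrc1 (ENSMUSG00000026712, chromosome 2, 14229392 to 14332057), which encodes the mannose receptor CD206, was at 349, 420.3 and 472 CPM in the lowest, median and highest responder and at 456, 420.1, 366 and 556 CPM in the non-responders. The groups overlapped (edgeR log2 fold change -0.13 with SE 0.12 and adjusted p = 0.494). Cd163 (ENSMUSG00000008845, chromosome 6, 124304656 to 124330527), the receptor for hemoglobin-haptoglobin, was at 47.2, 59.8 and 91.8 CPM in responders and at 83.3, 48.3, 52.6 and 124.5 CPM in non-responders. Non-responder 4 was the highest tumor for both genes, and without it the log2 fold change of Cd163 went from -0.31 (SE 0.26, edgeR adjusted p = 0.458) to 0.03 (edgeR adjusted p = 0.955). Folr2 (ENSMUSG00000032725, chromosome 7, 101839988 to 101857194), folate receptor beta, was at 22.2, 26.2 and 30.5 CPM in responders and at 35.1, 20.0, 27.4 and 29.2 CPM in non-responders (edgeR log2 fold change -0.09 with SE 0.14 and adjusted p = 0.688). Without non-responder 1, the highest tumor, it was 0.04 (edgeR adjusted p = 0.887). Of the 31-base words of Folr2 transcripts, 56.9% also occur in the antisense gene Gm10602, which has no row in the table.

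The wider resident and perivascular list had 0 of 14 genes called by edgeR and a median log2 fold change of 0.07. The count at an unadjusted p under 0.05 was 2, namely the chemokine gene Ccl8 and the phosphatidylserine receptor gene Timd4 (log2 fold changes 0.85 and 0.62, edgeR adjusted p = 0.0882 and 0.105). Over all 16041 genes tested it was 4665. DESeq2 called Ccl8 and Timd4 (adjusted p = 0.0432 and 0.0382), but it called 2584 of 15000 genes in all. Lyve1 was at 3.66 ± 2.14 against 3.97 ± 3.79 CPM and F13a1 at 88.3 ± 16.2 against 91.3 ± 25.0 CPM. Among relatives of the members, Treml4, Adgre5 and Kit were higher in responders (log2 fold changes 0.74, 0.36 and 0.68, edgeR adjusted p = 0.0401, 0.0499 and 0.0434). Adgre5 was at the threshold, with an edgeR adjusted p of 0.051 under DESeq2 size factors and 0.0557 with no filter, and it passed in 1 of 10 fits with a tumor left out (adjusted p up to 0.123, without non-responder 4). Kit is also a mast cell marker. Of the 12 relatives listed, 9 could be tested and 0 were lower, where 4.71% of all genes tested were called higher and 3.35% lower.

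The 250 bases before the annotated start of Apoe, Spp1 and Mrc1 are shown because these genes were higher, lower and not called in the same tumors. They were taken from RefSeq on GRCm38.p6, where 6 of the 10 members had a window that was used, and read from 5′ to 3′ on the strand of the gene. The RefSeq start of Mrc1 lies past the GENCODE start, so the end of that window holds its first annotated bases. The windows are chr7:19699189-19699438 (minus strand) for Apoe, chr5:104434861-104435110 (plus strand) for Spp1 and chr2:14229164-14229413 (plus strand) for Mrc1. Capitals mark matches on either strand to GAGGAA, the core bound by PU.1, or to GAAANNGAA, part of the interferon-stimulated response element (ISRE), TTCNNNGAA (the interferon gamma activated site, GAS), GGGNNTTNC (part of an NF-kB site) and ACGTG (the hypoxia response core).
Apoe: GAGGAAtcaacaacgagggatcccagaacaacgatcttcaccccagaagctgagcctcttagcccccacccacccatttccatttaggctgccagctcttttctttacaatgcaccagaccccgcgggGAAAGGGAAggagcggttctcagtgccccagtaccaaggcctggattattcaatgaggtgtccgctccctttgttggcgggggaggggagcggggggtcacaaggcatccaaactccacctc
Spp1: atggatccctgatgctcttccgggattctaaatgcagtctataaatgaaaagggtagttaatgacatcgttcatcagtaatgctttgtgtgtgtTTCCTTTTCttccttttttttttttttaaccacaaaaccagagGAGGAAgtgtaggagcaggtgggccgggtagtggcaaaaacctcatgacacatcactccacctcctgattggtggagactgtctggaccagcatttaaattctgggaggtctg
Mrc1: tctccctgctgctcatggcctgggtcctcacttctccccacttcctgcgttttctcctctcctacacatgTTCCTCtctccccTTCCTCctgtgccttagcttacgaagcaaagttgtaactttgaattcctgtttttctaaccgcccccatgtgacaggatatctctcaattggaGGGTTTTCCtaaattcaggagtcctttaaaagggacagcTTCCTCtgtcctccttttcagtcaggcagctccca

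The PU.1 core stood 3 times before Mrc1 and once each before Apoe, Spp1 and Trem2, and no match was in the windows of Cd163 and Folr2. Of all 32851 windows of this length, 23.3% held it. The ISRE part was found before Apoe, Spp1 and Folr2, where 7.13% of all windows held it, and the NF-kB part before Mrc1 alone of the 6, against 13% of all windows. GAS and the hypoxia core, held by 7.02% and 16.6% of all windows, had no match in the 6. Matches overlapped in none of the printed windows. The gene that rose and the gene that fell held the same pair of motifs in these windows.

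Arg1 and Nos2, whose enzymes compete for arginine, varied more between tumors than the other members. Arg1 (ENSMUSG00000019987, chromosome 10, 24915221 to 24927484) was at 4.33, 9.66 and 11.6 CPM in the lowest, median and highest responder and at 20.99, 5.45, 12.4 and 25.3 CPM in non-responders 1 to 4. Non-responders 1, 3 and 4 lay above all responders, and non-responder 2 lay among them. The log2 fold change of Arg1 was -0.89 (edgeR SE 0.39 and adjusted p = 0.151, unadjusted p = 0.0409), and without non-responder 2 it was -1.17 and passed (edgeR adjusted p = 0.0397). Of the 10 fits with a tumor left out, this was the 1 that passed. Across them the log2 fold change ranged from -1.17 to -0.57, with the highest edgeR adjusted p, 0.394, without non-responder 4. Nos2 (ENSMUSG00000020826, chromosome 11, 78920787 to 78960254), the inducible nitric oxide synthase, was at 16.1, 22.5 and 56.4 CPM in responders and at 12.2, 25.2, 27.7 and 10.1 CPM in non-responders. The tumors with the lowest Nos2, non-responders 1 and 4, were those with the highest Arg1. The groups overlapped (edgeR log2 fold change 0.57 with SE 0.39 and adjusted p = 0.359).

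The activation programs around these genes gave few calls. For scale, 4665 of all 16041 genes tested by edgeR were at an unadjusted p under 0.05, and DESeq2 called 2584 of 15000 genes. Of 14 classical activation genes, 12 could be tested, 6 were at an unadjusted p under 0.05 and 1 was higher by edgeR, Irf5, a transcription factor gene of inflammatory macrophages, at 62.1 ± 6.54 against 46.1 ± 4.17 CPM (edgeR log2 fold change 0.43 with SE 0.08 and adjusted p = 0.0259). The IFN-gamma induced chemokine gene Cxcl9 was at 717 ± 115 against 354 ± 223 CPM (edgeR log2 fold change 1.02 with SE 0.42 and adjusted p = 0.134) and Il1b at 137 ± 33.9 against 104 ± 29.0 CPM (edgeR adjusted p = 0.221). Of 15 alternative activation genes, 13 could be tested and 0 passed by edgeR, with 3 at an unadjusted p under 0.05. The C-type lectin gene Mgl2, at 46.7 ± 15.5 against 71.8 ± 10.3 CPM, and Klf4, at 62.0 ± 10.6 against 46.6 ± 7.80 CPM, had the smallest p (log2 fold changes -0.62 and 0.41, edgeR adjusted p = 0.0834 and 0.075), and DESeq2 called both (adjusted p = 0.0245 and 0.0264). Of 13 arginine metabolism genes, 12 could be tested and 0 passed by edgeR, with 5 at an unadjusted p under 0.05. The smallest p were those of Ddah2 and Nos1 (log2 fold changes -0.29 and -0.78, edgeR adjusted p = 0.0722 and 0.0868), of which DESeq2 called Ddah2 (adjusted p = 0.0327).

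Across the 9 lists, 115 of 123 genes that are no members could be tested. Of these, 29 rose and 1 fell in responders, or 26.1% against 8.06% of all genes tested, with a median log2 fold change of 0.28. The count was 0 without non-responder 1, non-responder 4 or responder 3, where 55, 54 and 60 listed genes were at an unadjusted p under 0.05. Calls over the whole table fell in the same fits, from 1293 to 16, 0 and 17, with 3654, 4106 and 4051 genes at an unadjusted p under 0.05. The count of listed genes called was 11 without non-responder 3, and 13, 9, 12 and 19 without responders 1, 2, 5 and 6. The DESeq2 Wald test called 47.

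**Figure D3:**
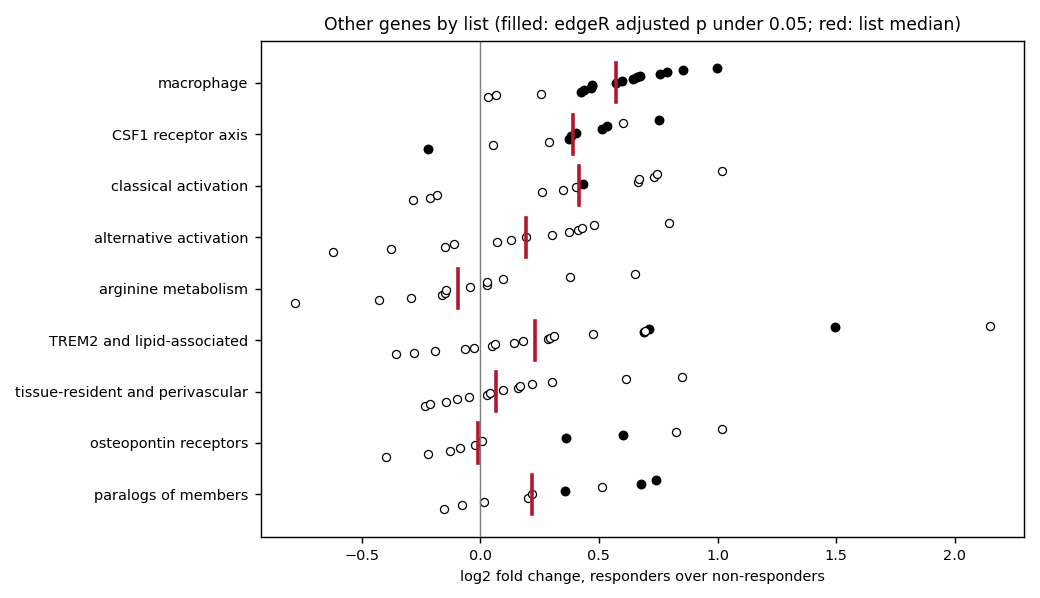
Log2 fold change, responders over non-responders (horizontal axis), of the genes tested in each of 9 lists, with filled points for an edgeR adjusted p under 0.05 and a red line at the list median. The pan-macrophage list lies to the right of 0 in all 17 genes, while the resident and arginine lists straddle 0 with no filled point.

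Ratios within a tumor depend little on library scaling and ask whether paired genes moved unequally. The log2 ratio of Mrc1 to Adgre1 averaged 0.89 ± 0.25 (SD, n = 6) across responders against 1.90 ± 0.58 (SD, n = 4) across non-responders. All 6 responders lay below the lowest non-responder, and Mrc1 per Adgre1 was 2.01-fold higher in non-responders (difference -1.005, two-sided exact permutation p = 0.00476, which is the minimum over 210 splits, adjusted p = 0.0143 over 3 ratios). The values in non-responders 1 and 4 were 2.37 and 2.43, against 1.39 and 1.41 in non-responders 2 and 3, and the highest responder was at 1.15. With a tumor left out the difference lay between -1.175 and -0.827. The ratio was chosen with the Adgre1 difference known and Mrc1 was not called, so its p largely restates Adgre1. Csf1r per Adgre1 separated the groups too (at most 2.39 in responders, at least 2.63 in non-responders). So did Spp1 per Adgre1 (at most 16.9 against at least 20.8), which had to, since both genes separated the groups in opposite directions. That ratio adds nothing to the 2 genes. Ratios to Adgre1 of Cd163, Arg1, Nos2, Trem2, Folr2 and Apoe overlapped.

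Spp1 to Folr2 had a mean log2 ratio of 6.57 ± 0.35 (SD, n = 6) across responders against 7.10 ± 0.31 (SD, n = 4), with 5 of 6 responders below all non-responders. It did not pass (difference -0.53, exact permutation p = 0.0619, adjusted p = 0.0929), and without responder 1, the exception, it did (difference -0.62, exact permutation p = 0.00794, adjusted p = 0.0119). Responder 1 was the only overlapping responder, so leaving it out fixes this p at the smallest possible value. Of the 10 comparisons with a tumor left out, this was the 1 that passed. Arg1 to Nos2 averaged -1.56 ± 0.88 (SD, n = 6) across responders against -0.30 ± 1.59 (SD, n = 4). Arg1 had more CPM than Nos2 in non-responders 1 and 4 alone, with log2 ratios of 0.76 and 1.28, while non-responders 2 and 3 were at -2.11 and -1.12, inside the responder range of -2.68 to -0.45. The difference of -1.27 did not pass (exact permutation p = 0.148, adjusted p = 0.148).

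**Figure D4:**
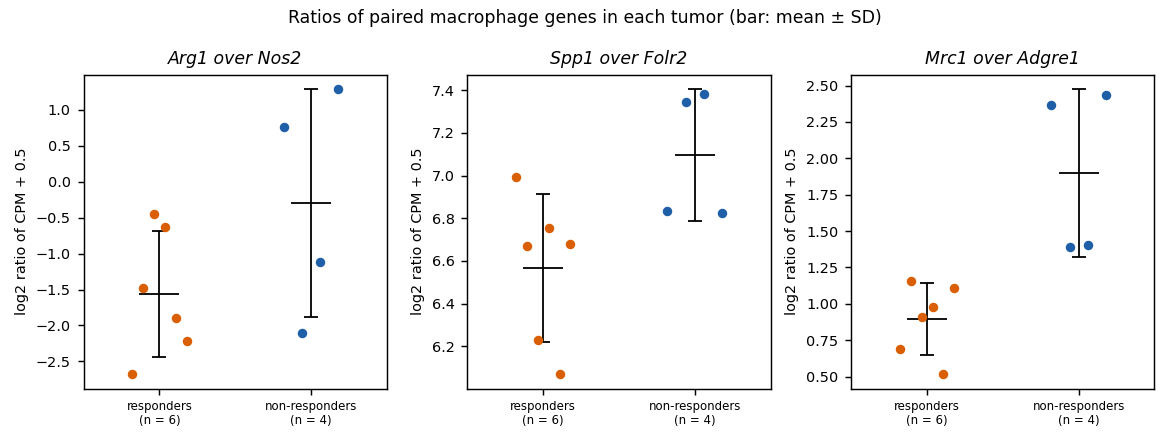
Log2 ratio of CPM plus 0.5 for 3 pairs of macrophage genes (vertical axes) in responder and non-responder tumors, with 1 point per tumor and the mean ± SD as a bar. Mrc1 over Adgre1 separates the groups, with responders at or below 1.15 and non-responders at or above 1.39, while the non-responders split widely in Arg1 over Nos2.

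Levels were compared between members per kilobase of annotated exon, with the exons of all annotated transcripts of a gene merged. Spp1 stood first with a mean of 1859 CPM per kb over the 10 tumors, followed by Apoe with 508, and in every tumor Spp1 was above Apoe and Apoe above the rest. Csf1r with 78.7, Mrc1 with 66.9 and Adgre1 with 56.5 CPM per kb formed a middle tier whose ranges overlapped, with Csf1r above Mrc1 in 8 of 10 tumors and Mrc1 above Adgre1 in 7. The order of these last differed by group, since Adgre1 averaged 69.0 and Mrc1 64.4 CPM per kb in responders, against 37.7 and 70.5 CPM per kb in non-responders. Folr2 with 17.4 and Cd163 with 12.5 CPM per kb followed, also with overlapping ranges. Nos2 and Arg1, with 5.48 and 5.23 CPM per kb, could not be ordered, since Nos2 was above Arg1 in 6 of 10 tumors. Trem2 was last with 1.84 CPM per kb, although its range overlapped that of Arg1, which was above it in 9 of 10 tumors. The merged length was 4946 bases for Trem2 and 2228 bases for Arg1, and the order depends on it. Where the main transcript of a gene is shorter, its level is understated, and this was not tested.

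To see how members varied together inside the groups, log2 CPM of Adgre1 and of each other member was centered on its group mean over the 10 tumors. None of the 9 relations passed at an adjusted p under 0.05. The closest were Arg1, with Pearson's r of -0.753 (permutation p = 0.0296, adjusted p = 0.266) and Spearman's rho of -0.661 (permutation p = 0.0829, adjusted p = 0.373), and Csf1r, with r of 0.652 (permutation p = 0.0599, adjusted p = 0.269) and rho of 0.624 (permutation p = 0.0803, adjusted p = 0.373). Without responder 5 and non-responder 2, the tumors farthest from the median of Adgre1, r was -0.564 for Arg1 and 0.552 for Csf1r (permutation p = 0.204 and 0.282). Csf1r passed without non-responder 4 (r = 0.900, permutation adjusted p = 0.0153). For the other 7 members r lay between -0.593 (Cd163) and 0.459 (Apoe), with adjusted permutation p between 0.316 and 0.839. Without responder 5 and non-responder 2, r of Spp1 changed sign, from -0.487 to 0.195.

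The genes most alike to a member over all 10 tumors were ranked by Pearson's r of log2 CPM, as a description only, since all points share the group difference and the highest of 16041 values is taken. For Adgre1 these were Dock2, Cd300ld3 and Slc8a1 (r = 0.994, 0.990 and 0.990), for Apoe Rab30, Camk1d and Hacd4 (r = 0.977, 0.975 and 0.968), and for Spp1 Ppfibp1, Akr1c18 and Copg1 (r = 0.981, 0.980 and 0.979). For Nos2 they were Lcn2, which encodes the iron-binding protein lipocalin 2, Susd6 and Mrgpra2b (r = 0.966, 0.942 and 0.935), and for Arg1 Phc2, Nudt3 and Rnps1 (r = 0.943, 0.941 and 0.938). For Csf1r they were Stard5, Tmem268 and Serf2 (r = 0.978, 0.964 and 0.959), and for Trem2 Crat, Pcdh12 and Fgd5 (r = 0.956, 0.906 and 0.902). For Cd163 they were Ttc39a, Zfp30 and Wnt9a (r = 0.966, 0.931 and 0.911), for Folr2 Tesk2, Irak1 and Ctsk (r = 0.972, 0.939 and 0.930), and for Mrc1 P3h2, Mamstr and Hpdl (r = 0.933, 0.897 and 0.876).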

How the data were processed

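Poly(A) RNA of 10 resected tumors was sequenced as 150 bp paired ends. The authors checked reads with FastQC, estimated transcript abundance with Kallisto and collapsed it to genes through tximport against mm10, and they deposited estimated counts per gene and tumor (the annotation release, tximport scaling and strand setting are not given in the sources used here). These expected counts were rounded and fitted on the whole table with edgeR 4.0.16 in R 4.3.3 (filterByExpr defaults, TMM, quasi-likelihood, two-sided, Benjamini-Hochberg over 16041 genes), and DESeq2 1.42.0 was an alternative. Coordinates came from GENCODE M21 (GRCm38), and 35912 identifiers matched. CPM is relative to the TMM-scaled total, with 2 as prior count on the log2 scale. Shared 31-base words were counted between GENCODE transcripts. Ratios used 0.5 CPM as pseudocount. Tumor numbers follow accession order, and no batch is labeled. The SE is the fold change over the square root of F. The fit was tested on simulated data.

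Members, lists and tests were chosen with earlier results of these data known. Named genes were all members, and from each list the called genes (at most 6, by p) or else the 2 with the smallest p, plus the 3 genes most alike to each member. A further gene that this rule takes from the lists is counted, but its own values are not reported here. The other genes given with values (Mertk, Cd14, Cx3cr1, Gpnmb, Fabp5, Cd44, Lyve1, F13a1, Cxcl9, Il1b and those of markers) were picked from the lists after values were seen. Alternatives were other scalings, filters, a robust fit, DESeq2, other pseudocounts and each tumor left out.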

Additional observations from a re-analysis of the deposited data

Results flagged for a closer look

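In 26 groups of values (10 members and 3 ratios in each of 2 groups), the highest and lowest tumor were compared with the rest, and 2 stood apart, where chance gives about 1.3. Adgre1 in responder 5 was at 311.8 CPM, the next responder was at 226.7 and the lowest at 177.1 CPM, so the gap took 0.632 of the range (critical value 0.625). Cd163 in responder 6 was at 91.75 CPM, the next at 62.59 and the lowest at 47.2 CPM, a gap of 0.655 of the range.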

How the results depend on the processing

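Adgre1, Apoe and Spp1 were the members called under each alternative scaling, filter, robust fit and the DESeq2 Wald test, and their direction held in all 16 alternatives. With a tumor left out, the number of members called ranged from 0 to 4 and that of other listed genes from 0 to 38. Members called were 0 without non-responder 1, non-responder 4 or responder 3 (3, 4 and 5 at an unadjusted p under 0.05), where 16 of 16285, 0 of 16239 and 17 of 15962 genes were called in all. In these fits 3654, 4106 and 4051 of all genes were at an unadjusted p under 0.05. Members called were 1 (Apoe) without responder 2 or non-responder 3, and 4 without non-responder 2. The DESeq2 Wald test called 47 listed genes against 30, and 2584 of all genes against 1293. With a tumor left out, log2 fold changes changed sign for Cd163 (-0.475 to 0.026), Folr2 (-0.222 to 0.040) and Trem2 (-0.056 to 0.129), none of which passed in any of these fits, and the ratio of Spp1 to Folr2 ranged from -0.622 to -0.432. In the 6 responders alone, r with Adgre1 had the other sign for Folr2, Mrc1, Trem2 and Nos2 (0.306, 0.518, 0.402 and -0.0141). It was farthest from 0 there for Csf1r, Spp1 and Apoe (0.891, -0.822 and 0.815), and none passed (lowest exact permutation adjusted p = 0.1125). With a tumor left out of the 10, r with Adgre1 ranged from -0.292 to 0.106 for Mrc1 and from 0.497 to 0.900 for Csf1r. The causes were not tested. The tumor numbers do not pair the groups. Members had 146 or more counts in every tumor, and counting error weighs most on those with few, Arg1, Trem2 and Nos2.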

Other observations

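After values were seen, all 45 pairs of members were compared inside the groups as above, with 100000 permutations within groups. None passed at an adjusted p under 0.05 over the 45 (lowest 0.117). The pairs named below were those with the lowest permutation p of r. Values in the 6 responders come from the same tumors, so they are no separate support. Nos2 and Trem2 ran opposite to each other, with r of -0.883 (permutation p = 0.00548) and rho of -0.782 (permutation p = 0.0325). Without responder 1 and non-responder 3, the tumors farthest from the median of Nos2, r was -0.839, and in the 6 responders it was -0.836 (exact permutation p = 0.0403). Spp1 and Apoe, which differ between groups in opposite directions, were also opposed inside them (r = -0.781, permutation p = 0.00395, and rho = -0.746, permutation p = 0.00645). Within responders (n = 6) r reached -0.877 (exact permutation p = 0.0167), while with a tumor left out of the 10 it ranged from -0.833 to -0.643. Mrc1 and Trem2 ran together (r = 0.823, permutation p = 0.00778, and rho = 0.782, permutation p = 0.0176). Both values of a pair come from the same library.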
